A study of Homo sapiens with 12 samples.

Results

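Follistatin (FST), the follistatin-related protein FSTL3 and the activin subunit genes INHBA, INHBB, INHBC and INHBE were followed in HepG2, an established human hepatocellular line of tumour origin, over 5 times of insulin stimulation. These are 6 of the 26364 named genes of the count table, and 5 of the 6 passed the filter on low counts that left 13852 genes for testing. The set was selected on the fall of FST and its timing in these same libraries, with a low level after 240 min of insulin. The values of FST, their timing included, are therefore given as a description with no test. The other genes are read from a fit over all tested genes. RNA-seq libraries were made from cells at 0, 5, 10, 30 and 240 min, with 2 replicates at each time and 10 libraries in all, so each mean has n = 2 and each error of a level is the SD over those 2 libraries. Every group is the same line, and the group labels differ only in the time named in the library title. No library without insulin was made at the later times. Differences from 0 min therefore cannot be told apart as effects of insulin or of the time passed in culture. The treatment text attached to the RNA-seq libraries gives 3 nM insulin and a single 5 min exposure after culture in EMEM for all of them, those at 0 min included, so the times are taken from the titles. This text stands beside a DNA extraction and the text of the ChIP-seq libraries beside an RNA extraction, so the treatment texts may be exchanged too. Both name 3 nM insulin. The labels do not say whether replicates were separate cultures, and p-values therefore measure only the spread between these samples, which may be technical. A cancer line grown alone lacks the other cells of the liver.

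Activins are dimers of inhibin beta subunits, encoded by INHBA, INHBB, INHBC and INHBE, and they signal through type II and type I serine/threonine kinase receptors to SMAD2 and SMAD3. FST and FSTL3 are secreted or nuclear glycoproteins that bind activins and keep them from their receptors. The liver is a source of circulating follistatin, and INHBC and INHBE are expressed mainly in hepatocytes.

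FST lies on chromosome 5 at 52776264 to 52782304 of hg19, plus strand, and INHBB on chromosome 2 at 121103719 to 121109383, plus strand. FSTL3 is on chromosome 19 at 676389 to 683392, plus strand, and INHBA on chromosome 7 at 41728601 to 41742706, minus strand. INHBC and INHBE are neighbours on the plus strand of chromosome 12, at 57828468 to 57845845 and 57849096 to 57851791, with INHBE starting 3251 bases after the end of INHBC. An annotated antisense RNA overlaps INHBA and another overlaps the 3′ end of INHBE, and the authors counted reads by strand. The 200 bases before the first start of each gene in the StringTie table or GENCODE, whichever lay further upstream, are shown for FST, the member with the largest difference, and for INHBB, the subunit with the largest difference at 10 min, 5′ to 3′ from GRCh37, with those at the centre of the insulin receptor (IR) ChIP-seq peak nearest to a member. Capitals mark the GC box GGGCGG or its reverse complement CCGCCC.
FST, chr5:52776064-52776263, plus strand: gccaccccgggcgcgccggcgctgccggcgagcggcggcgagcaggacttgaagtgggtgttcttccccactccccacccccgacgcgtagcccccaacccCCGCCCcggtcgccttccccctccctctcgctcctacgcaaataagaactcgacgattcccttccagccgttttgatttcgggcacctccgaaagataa
INHBB, chr2:121103512-121103711, plus strand: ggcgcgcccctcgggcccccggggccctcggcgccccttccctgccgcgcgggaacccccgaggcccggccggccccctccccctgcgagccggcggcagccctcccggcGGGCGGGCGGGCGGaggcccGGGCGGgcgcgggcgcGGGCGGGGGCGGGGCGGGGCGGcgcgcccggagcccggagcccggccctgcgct
IR peak near INHBE, chr12:57856014-57856213, plus strand: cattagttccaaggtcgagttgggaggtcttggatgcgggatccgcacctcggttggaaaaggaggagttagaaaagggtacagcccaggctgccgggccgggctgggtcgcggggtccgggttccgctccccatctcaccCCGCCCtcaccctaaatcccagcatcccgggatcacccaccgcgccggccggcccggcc
The FST window had a GC content of 67% and 1 GC box, and the INHBB window had 91% and 8 GC boxes when overlapping matches were counted. Over 26053 windows of the same length before annotated genes the median GC content was 58%, and 38.5% of windows held a GC box on either strand. The forkhead motif GTAAACA (2.196% of windows), the cyclic AMP response element TGACGTCA (1.48%) and the SMAD palindrome GTCTAGAC (0.123%) were searched on both strands, and none was in the window of any of the 6 genes. These searches say only that those letters are not in these windows.

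FST was the most abundant of the 6 mRNAs at each time on the TPM scale, which corrects for transcript length. Its mean was already lower at 10 and 30 min, and most of the fall came after 30 min. In CPM, read counts per unit of TMM-adjusted sequencing depth, the libraries before insulin had 131 and 125, then came 121 and 127 (5 min), 109 and 114 (10 min), 114 and 103 (30 min), and 31.0 and 29.9 (240 min). The libraries at 240 min were far below all 8 earlier ones, and both libraries at 10 min and both at 30 min were below both at 0 min. The means were 128 ± 4.52 CPM at 0 min, 124 ± 3.96 at 5 min, 111 ± 2.85 at 10 min, 108 ± 7.34 at 30 min and 30.4 ± 0.790 at 240 min. The plot of FST by time shows this course.

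**Figure D1:**
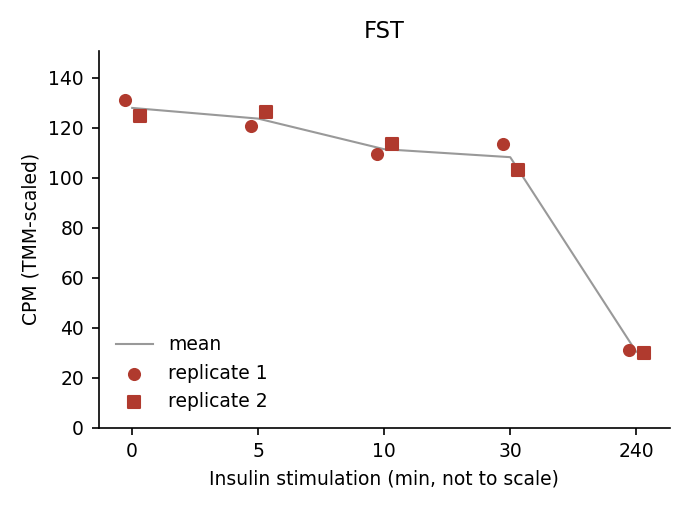
FST level in CPM after TMM scaling on the vertical axis against minutes of insulin on the horizontal axis, which is evenly spaced and not to scale. Symbols are the 2 libraries of each time and the line joins their means, which go from 128 CPM at 0 min to 108 CPM at 30 min and 30.4 CPM at 240 min.

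Of the whole difference between 0 and 240 min, 4.38% was reached at 5 min, 16.9% at 10 min and 20.2% at 30 min, and the remainder lay between 30 and 240 min, where no library was made. Relative to 0 min the mean level was 96.7% at 5 min, 87.1% at 10 min, 84.6% at 30 min and 23.8% at 240 min. The log2 fold changes of FST were −0.05, −0.20, −0.24 and −2.07 at the 4 times, and −1.83 for 240 against 30 min. The StringTie abundances, in TPM, gave 161 ± 4.73 at 0 min, 141 ± 6.78 at 30 min and 40.0 ± 0.878 at 240 min, and 17.1% of the difference was reached at 30 min. The early part of the course depended on the scaling. With counts scaled to the ERCC spike-ins, the level was 69.5% of the start at 10 min, 77.5% at 30 min and 21.9% at 240 min, and the median of all genes shifted by −0.33 on the log2 scale at 10 min. In scaled counts per ERCC count the 10 min libraries stood at 84.0 and 111, replicate 2 being the lower, against 137 and 143 at 0 min. The 10 min replicate 2 library had the highest ERCC share, 2.36%, and its part in the 10 min value was not tested.

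Among the 13852 tested genes FST ranked 7 from the lowest log2 fold change at 240 min. Of the 4344 genes that averaged 50 CPM or more, 3 had a fold change as low, FST included. The 5 genes whose 4 log2 fold changes lay nearest to those of FST, among 12337 genes averaging 1 CPM or more, were SEPSECS-AS1, ZSWIM4, FAXDC2, KLHL24 and HBP1. Their root mean square differences from FST were 0.12, 0.14, 0.15, 0.16 and 0.21 on the log2 scale. HBP1, a transcriptional repressor, had a log2 fold change of −1.91 at 240 min, and KLHL24, a kelch protein, had −2.03. All comparisons with 0 min share the same 2 control libraries, so this likeness is a description over 4 differences.

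FSTL3, the second follistatin-type binding protein of the set, did not pass the test at any time. Its libraries had 5.80 and 5.70 CPM at 0 min, then 6.57 and 5.12 (5 min), 6.46 and 7.20 (10 min), 5.96 and 7.38 (30 min), and 6.44 and 6.94 (240 min). The libraries at 10, 30 and 240 min lay above both at 0 min, and those at 5 min lay on both sides. These comparisons share the same 2 libraries at 0 min. The share of all genes whose libraries separate in this way was not computed, for FSTL3 or any other member. Such a separation is therefore not read as a rise. The log2 difference at 240 min was 0.22 ± 0.14 (SE), with an adjusted p of 0.238 by edgeR's quasi-likelihood test. The adjusted p was 0.930 at 5 min, 0.959 at 10 min and 0.740 at 30 min, and 0.952 for 240 against 30 min. At 10 min the difference was 0.25 with TMM and −0.09 with ERCC scaling. The most similar courses were those of ZNF487, H3F3B, which encodes histone H3.3, and ST20.

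The rest of the set encodes the activin subunits, and INHBB and INHBE were higher at 240 min while INHBC did not pass the test. Of the 4 members tested besides FST, 0 passed at 5 min, 0 at 10 min, 0 at 30 min and 2 at 240 min. In the same comparisons 0% of all tested genes passed at 5 min, 0.137% at 10 min, 0.332% at 30 min and 41.0% at 240 min, of which 20.6% were higher and 20.4% lower. A count of 2 of 4 is therefore near the background. Of the calls at 240 min 50.2% were higher with TMM, against 31.3% of the 1059 calls made with ERCC scaling. At an unadjusted p under 0.05 in edgeR the counts of these members were 0, 1 and 0 at 5, 10 and 30 min. Over all 13852 tested genes the counts at that threshold were 1976, 710 and 1125. DESeq2 called 0 of these members at each of these times, where it gave an adjusted p for 0, 1 and 4 of them. For 240 against 30 min 2 of the 4 passed, against 38.2% of all genes, of which 19.8% were higher in the same comparison.

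INHBB encodes the beta B subunit of activin B. Its libraries had 3.25 and 3.17 CPM at 0 min, then 4.24 and 2.97 (5 min), 5.05 and 6.26 (10 min), 3.59 and 4.52 (30 min), and 5.40 and 6.36 (240 min), from 62 to 147 counts. The level was high at 10 min, lower at 30 min and high again at 240 min, and the libraries of 10 and 240 min overlapped each other and lay above both at 0 min. The rise at 240 min was 0.87 ± 0.18 (SE) on the log2 scale, from 3.21 ± 0.058 to 5.88 ± 0.683 CPM, with an adjusted p of 0.000590 by edgeR. The difference at 10 min was 0.82 ± 0.17 with TMM and 0.47 with ERCC scaling, against 0.75 at 240 min with ERCC scaling. Its adjusted p was 0.0937 with TMM and 0.211 with ERCC scaling, and it passed only without the filter on low counts (adjusted p = 2.77e-05), with only the 2 times compared in the fit (0.0197) or when either 5 min library was left out. At 30 min the difference was 0.32 ± 0.18 with an adjusted p of 0.674. The rise from 30 to 240 min, 0.54 ± 0.18 with an adjusted p of 0.0204, rested on single libraries: without 30 min replicate 1 it was 0.37 (0.223), and without 240 min replicate 2 it was 0.43 (0.131). It also missed the threshold with DESeq2 (0.0665), limma on log2(TPM + 1) (0.0734) or log2(TPM + 0.1) (0.0894), and ERCC scaling (0.177). The nearest courses to that of INHBB were those of NKX2-5, a homeobox transcription factor, CPZ and ZNF57.

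INHBE encodes the beta E subunit and is a hepatocyte-enriched gene. The libraries had 2.37 and 3.17 CPM at 0 min, then 2.97 and 3.06 (5 min), 3.63 and 2.64 (10 min), 3.23 and 3.11 (30 min), and 5.28 and 5.68 (240 min), from 51 to 141 counts. The 8 libraries of the first 30 min overlapped, and both libraries at 240 min were above all of them. The rise at 240 min was 0.93 ± 0.17 (SE) on the log2 scale, with an adjusted p of 0.000231 by edgeR, and 0.78 ± 0.18 against 30 min (adjusted p = 0.00158). At 5, 10 and 30 min the differences from 0 min were 0.07, 0.14 (−0.15 with ERCC scaling) and 0.15, with adjusted p of 0.896, 0.980 and 0.872. The gene most like INHBE in course was OGFRL1, with a root mean square difference of 0.029, followed by RRP15 and RBM43.

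**Figure D2:**
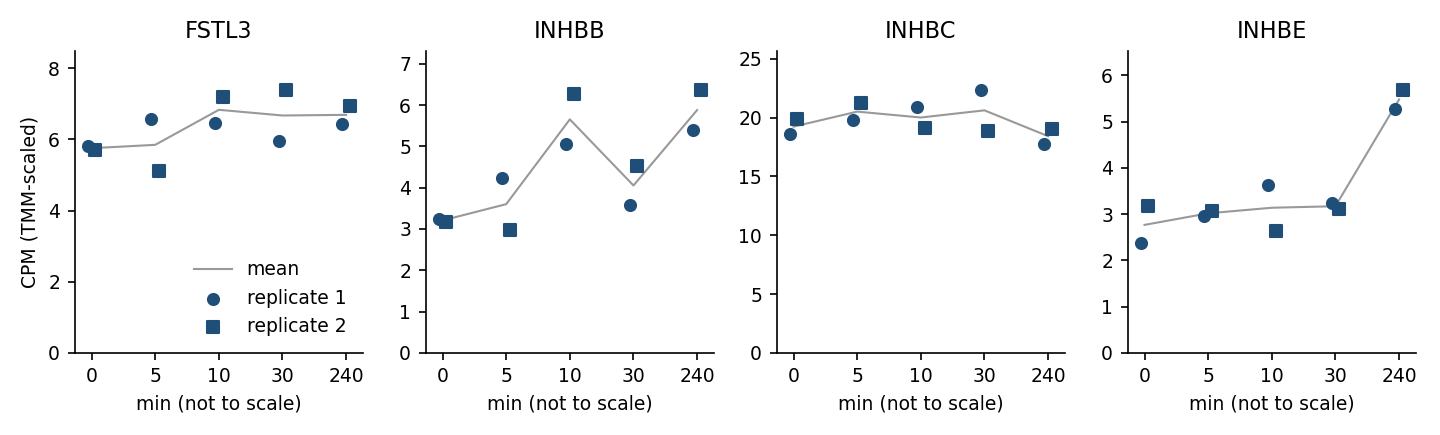
Levels of FSTL3, INHBB, INHBC and INHBE in CPM after TMM scaling on vertical axes that start at 0, against minutes of insulin, evenly spaced. Symbols are the 2 libraries of a time and lines join their means. INHBE sits between 2.37 and 3.63 CPM in the first 4 times and at 5.28 and 5.68 CPM at 240 min, and INHBB is high at 10 and 240 min.

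INHBC, which encodes the beta C subunit and had the highest TPM of the 4 subunit mRNAs, overlapped its 0 min range at every later time. Its libraries had 18.6 and 19.9 CPM at 0 min, then 19.8 and 21.2 (5 min), 20.9 and 19.1 (10 min), 22.3 and 18.9 (30 min), and 17.8 and 19.0 (240 min). The log2 difference at 240 min was −0.07 ± 0.09 (SE), with an adjusted p of 0.546 by edgeR. The earlier differences were 0.08, 0.05 and 0.10 (adjusted p = 0.704, 0.986 and 0.802), and with ERCC scaling those at 10 and 30 min were −0.26 and −0.02. For 240 against 30 min it was −0.18 ± 0.09, with an adjusted p of 0.146 and, without 30 min replicate 2, −0.28 and 0.0325. INHBC and INHBE lie side by side on the same strand, and the values at 240 min are given for each alone, since the difference between their changes was not tested. HNRNPUL2, an RNA-binding protein, SNTB1 and SPATA18 had the courses nearest to INHBC.

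**Figure D3:**
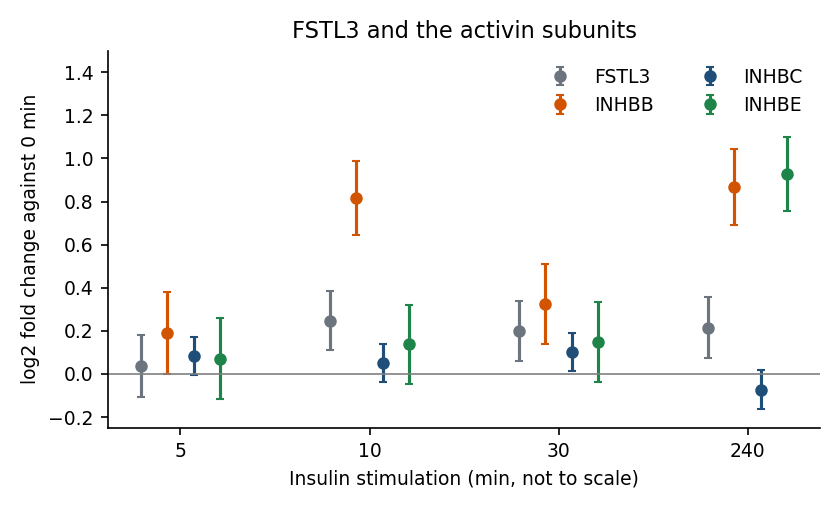
Log2 fold change against 0 min on the vertical axis for FSTL3, INHBB, INHBC and INHBE at 5, 10, 30 and 240 min, evenly spaced. Points are estimates from edgeR and bars are ± 1 SE. INHBB is at 0.82 at 10 min and 0.87 at 240 min, and INHBE at 0.93 at 240 min.

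INHBA, the beta A subunit of activin A, was nearly undetected and was not tested. It had 0 counts in all 4 libraries of the first 2 times, then 1 and 1 (10 min), 3 and 0 (30 min), and 1 and 1 (240 min). In the 5 libraries with 0 counts, the 3 counts that a count of 0 allows correspond to 0.0674 to 0.146 CPM, counting error only. No difference between times was detectable at this depth.

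On the TPM scale, on which genes may be compared, INHBC, INHBB and INHBE together made 19.6 ± 1.37 TPM at 0 min and 24.5 ± 1.81 at 240 min. INHBC was 73.1% ± 1.03 of this sum at 0 min and 57.5% ± 0.580 at 240 min, INHBE 14.3% ± 2.03 and 23.4% ± 0.260, and INHBB 12.6% ± 1.002 and 19.0% ± 1.04. FST was 8.27 ± 0.819 times the summed subunits at 0 min, 7.41 ± 0.203 at 5 min, 6.32 ± 0.426 at 10 min, 6.37 ± 0.0106 at 30 min and 1.64 ± 0.156 at 240 min, a description that contains the values FST was selected on. Against FSTL3, FST was 24.1 ± 1.16 times as high at 0 min and 4.93 ± 0.456 times at 240 min. These are mRNA levels of cells in culture, and secreted protein was not measured in the files used here.

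**Figure D4:**
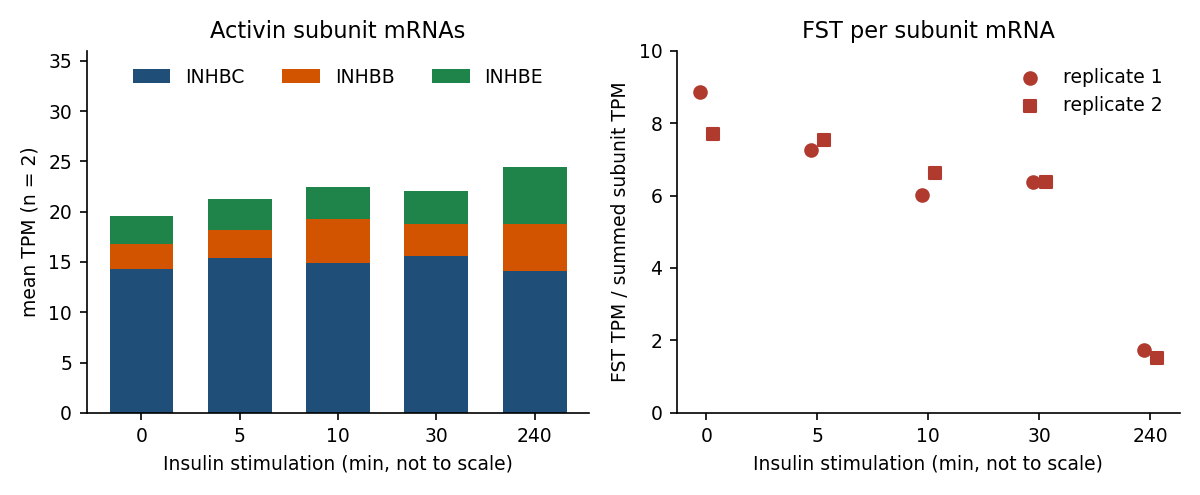
Left, mean TPM over the 2 libraries of INHBC, INHBB and INHBE, stacked, with a sum of 19.6 TPM at 0 min and 24.5 TPM at 240 min. Right, FST TPM divided by the summed TPM of the 3 subunits in each library, with means of 8.27 at 0 min and 1.64 at 240 min, against minutes of insulin, evenly spaced.

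The rest of the activin and TGF-beta pathway was taken as 68 genes in 6 lists, of which 50 were tested. At 240 min 26 of the 50 passed, 13 higher and 13 lower, against 41.0% of all genes, and the median log2 fold change was −0.02, against 0.00 over all tested genes. With ERCC scaling 4 of them passed, against 7.65% of all genes. Without 0 min replicate 2, the deepest library, the count was 17. At 5, 10 and 30 min 0, 1 and 2 of them passed, against 0%, 0.137% and 0.332% of all tested genes. Among the ligands 1 of 7 tested passed, GDF11, a close relative of myostatin that binds activin type II receptors, which rose by 0.78 ± 0.12 (SE) from 5.93 to 10.1 CPM (adjusted p = 2.19e-05, edgeR). Of 9 receptors 3 rose and 2 fell. ACVR2B, a type II receptor, fell by 0.70 (SE 0.063, adjusted p = 5.98e-08), from 83.6 to 51.3 CPM, and ACVR1C, the type I receptor ALK7, rose by 0.58 (SE 0.19, adjusted p = 0.0182), a call lost with DESeq2 (0.0914), with ERCC scaling, and without 0 min replicate 2 or 240 min replicate 2. ACVR1B, the type I receptor ALK4, had 35.5 CPM at 0 min and 34.8 at 240 min.

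Of 15 SMADs and SMAD regulators tested, 7 rose and 5 fell at 240 min, where 41.0% of all tested genes passed. With ERCC scaling, where 7.65% of all genes passed, TGIF1 alone of this list did. SMAD7, the inhibitory SMAD that is itself induced by TGF-beta signalling, was the one pathway gene past the threshold at 10 min, at 0.63 ± 0.10 (SE, adjusted p = 0.00680, edgeR), and it was also higher at 30 min, 0.80 (adjusted p = 0.000507), as well as at 240 min, 0.55 (adjusted p = 0.000427). Its means were 7.29, 8.59, 11.4, 12.8 and 10.7 CPM in order of time. The 10 min call was lost when any 1 of the 0 or 10 min libraries was left out and with ERCC scaling (0.31, adjusted p = 0.229), ERCC scaling ended the other calls of SMAD7 too, and limma those at 10 and 30 min. SKIL, a SMAD corepressor, rose by 0.60 (adjusted p = 1.58e-06), a call lost with ERCC scaling (0.113). TGIF1, another corepressor, fell by 0.62 (adjusted p = 1.19e-07). ID1, a target of SMAD1 and SMAD5, passed at 30 min only, at 0.53 ± 0.094 (adjusted p = 0.0110), and lost the call with ERCC scaling, with limma and without 0 min replicate 1, 30 min replicate 1 or 30 min replicate 2.

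Among 7 target genes tested, 2 rose, SMAD7 and SKIL, which also stand in the list above, and 3 fell, with a list median of −0.18. Across all tested genes 41.0% passed at 240 min. Of 10 binding proteins and co-receptors, 1 rose and 3 fell. Named after their values were seen, these were FSTL4, which rose from 5.73 to 7.58 CPM (0.38, adjusted p = 0.0280), and TGFBR3, BAMBI and CHRD, which fell by 0.46, 0.35 and 0.28. Of these 4, TGFBR3 alone still passed with ERCC scaling. Betaglycan, the product of TGFBR3, is a co-receptor for inhibin, and its mRNA went from 519 to 378 CPM (adjusted p = 3.86e-07). Of 4 proprotein convertases, the enzymes that cleave activin precursors, 1 passed: PCSK5 rose by 0.65 (SE 0.22, adjusted p = 0.0257), a call lost with ERCC scaling, with limma and without 0 min replicate 1 (0.51) or 240 min replicate 2 (0.31). Without 240 min replicate 1 it was 0.97.

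**Figure D5:**
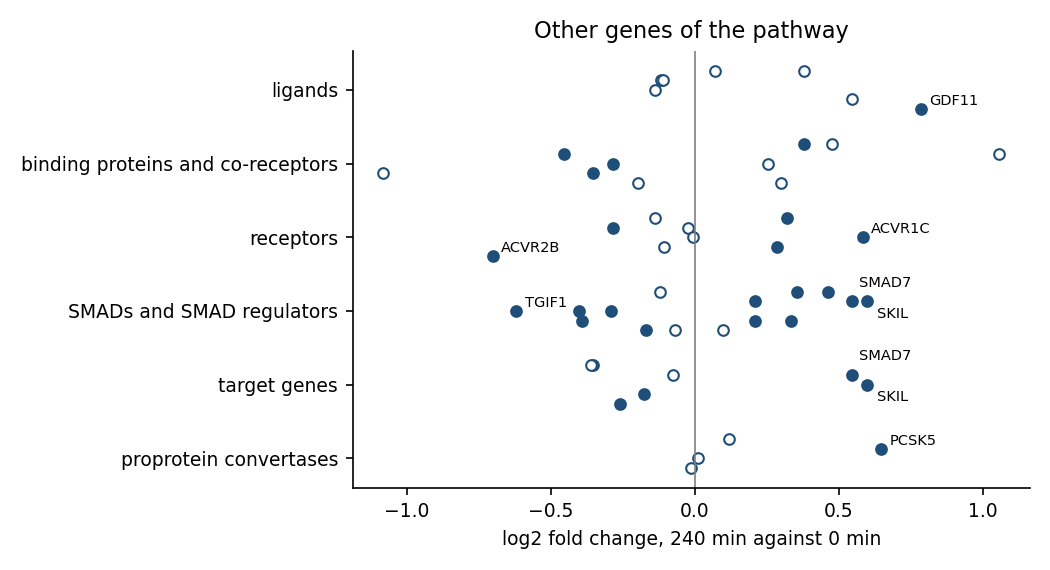
Log2 fold change at 240 min against 0 min on the horizontal axis for the tested genes of 6 pathway lists, 1 row per list. Filled points passed the threshold, open points did not, and names mark those that passed with a change of at least 0.5; SMAD7 and SKIL stand in 2 lists. ACVR2B is lowest at −0.70 and GDF11 highest at 0.78 among the filled points.

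For orientation, 4 genes known to be repressed by insulin in liver were read in the same fit. They were chosen with earlier results of these data known, so their falls are no independent check of the time course. All 4 passed as lower at 240 min, where 20.4% of all tested genes did. At 240 min IGFBP1, the insulin-like growth factor binding protein, fell by 2.88, G6PC by 2.07, PCK1 by 1.32 and IRS2 by 0.82 on the log2 scale. IRS2 lost its call with DESeq2 (0.0733), with ERCC scaling and without 0 min replicate 1, 240 min replicate 1 or 240 min replicate 2. IGFBP1 was already lower at 10 min, by 0.48 (adjusted p = 0.000269, edgeR), where FST stood at −0.20, and with ERCC scaling the values were −0.81 and −0.53. The 10 min call of IGFBP1 was lost with limma on log2(TPM + 1) (0.335) and log2(TPM + 0.1) (0.458). The hepatocyte markers were present, with ALB at 15796 to 22258 TPM. At 240 min 1 of 8 passed, a rise, against 41.0% of all tested genes, of which 20.6% were higher and 20.4% lower. Markers of other liver cells summed to 142 to 145 TPM at 0 min and 126 to 134 TPM at 240 min, most of it ACTA2 and CD68, with PTPRC and COL1A2 at 0 TPM in every library. Of 6 of these markers tested 2 fell at 240 min, ACTA2 by 0.30 (adjusted p = 0.00215, edgeR) and PDGFRB by 0.53 (adjusted p = 0.00145). A count of 2 of 6 is not above the 41.0% of all tested genes that passed. Their part in the values of the 6 genes was not tested. All libraries came from the same line grown alone, so these levels are not read as numbers of other liver cells. In bulk RNA, fewer expressing cells and less RNA per cell cannot be told apart.

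The IR ChIP-seq came from 1 library with 1971 peaks, each with a score, and gives a description with no replicate check. A peak lay within 5 kb of the gene body of 1 of the 6 genes, INHBE. The share of all genes with a peak this near was not computed, so the count is not read as high or low. This peak, at chromosome 12 from 57855931 to 57856296 of hg19, lay 4.14 kb past the end of INHBE in an intron of GLI1, a transcription factor of the hedgehog pathway, to which HOMER assigned it. Its score of 29 ranked 1687 of 1971, in the lower part of the list. The peak also lay inside the annotated antisense RNA that overlaps the 3′ end of INHBE, which spans 57851379 to 57856601 on the minus strand. The nearest peaks lay 10.1 kb from INHBC, 42.6 kb from FSTL3, 114 kb from INHBB, 1209 kb from INHBA and 2226 kb from FST. No member was the gene that HOMER named for any peak.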

How the data were processed

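RNA-seq of HepG2 cells and 1 IR ChIP-seq library were analysed from the processed tables. The authors trimmed reads with Trim Galore 0.6.4, aligned them to hg19 with STAR 2.6.1d, counted them by strand with featureCounts 1.6.4 and deposited raw counts per gene. The authors also deposited StringTie TPM. ChIP-seq reads were aligned with BWA 0.7.17-r1188, and the authors deposited MACS2 2.2.7.1 peaks with a score, annotated by HOMER. Libraries held 18347109 to 45005769 counts on genes. The 92 ERCC rows, 1.59% to 2.36% of counts, were used only for ERCC scaling. The extraction texts of the RNA-seq and ChIP-seq libraries appear exchanged, and the paper's methods were followed.

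Counts were tested with edgeR 4.0.16 (R 4.3.3): TMM, filterByExpr by time, the quasi-likelihood test in 1 model of 10 libraries without a block, and Benjamini-Hochberg adjustment over 13852 genes at 0.05. Standard errors are the fold change over the root of F. The test was tested on simulated data. Genes named were the members, pathway genes past the threshold with a log2 change of at least 0.5, 4 insulin response genes and the genes of nearest course. ACVR1B, FSTL4, TGFBR3, BAMBI, CHRD and the cell markers fell outside this rule and were named after their values were seen. Members and lists were chosen with earlier results of these data known. Alternatives used DESeq2 1.42.0, limma 3.58.1, RLE and ERCC scaling, other filters, a replicate block, only the times compared, and each library left out. Sequences came from GRCh37, and figures from matplotlib 3.10.9.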

Additional observations from a re-analysis of the deposited data

How the results depend on the processing

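No value tested against the threshold changed direction where it had passed. FST at 240 min, −2.07 in the log2 fold change, was −2.19 with ERCC scaling, −1.99 with limma on log2(TPM + 1) and −2.01 on log2(TPM + 0.1), and −2.11 to −2.04 with a library left out. INHBB at 240 min ranged from 0.70 to 0.88 over the alternatives and from 0.75 to 0.99 with a library left out, with adjusted p from 1.74e-07 to 0.0318. INHBE ranged from 0.83 to 1.02 and from 0.78 to 1.203, with adjusted p from 8.26e-08 to 0.0165. Differences that had not passed took the other sign with ERCC scaling for INHBC (−0.26), INHBE (−0.15) and FSTL3 (−0.09) at 10 min, where the median of all genes shifted by −0.33. The pathway count at 240 min, 26, was 4 with ERCC scaling and 17 to 26 with a library left out, the lowest without 0 min replicate 2. At 10 min it ranged from 0 to 3 and at 30 min from 0 to 3, with 1 and 2 in the fit reported. Members with an IR peak numbered 1 at 5 kb, 0 at 1 kb and 2 at 20 kb, and shares over all genes were not computed. Same-numbered libraries correlated from −0.40 to 0.36 in their deviations, a range that neither shows nor excludes pairing by number. With a replicate block the pathway count was 27 and the calls of 2 members at 240 min were kept. Over all genes 5845 passed at 240 min with the block and 5676 without it. With 2 libraries a time and 51 to 147 counts for INHBB and INHBE, smaller differences could not be detected. The causes were not tested.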
